A study of Sus scrofa with 12 samples.

Results

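Deubiquitinases are the proteases that remove ubiquitin from other proteins, and the expression of their genes was described here in porcine oocytes during in vitro maturation. The genes were chosen by name: every gene with a pig symbol of the USP series, of the OTUD, OTUB or UCHL series, and BAP1, CYLD, YOD1, VCPIP1, STAMBP and BRCC3. This gave 66 of the 31908 gene identifiers in the data, 47 of them in the USP family, 12 in the OTU family, 4 in the UCH family, 2 zinc-dependent JAMM proteases (STAMBP and BRCC3) and CYLD. The rule used names and no measured value, although earlier results of these data were known when the genes and lists were chosen. USP6NL carries the prefix but is known as a GTPase-activating protein rather than a deubiquitinase, and it was kept as the rule gave it.

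Ubiquitin is attached to proteins by ligases, often as chains, and the type of chain marks the protein for the proteasome, for sorting in endosomes or for signaling. Deubiquitinases trim or remove these chains, rescue proteins from destruction and return free ubiquitin to the pool. A fully grown oocyte is largely silent in transcription, so during maturation it works with stored mRNA and protein, and ordered protein destruction by the ubiquitin system drives its passage through meiosis.

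RNA was measured in 12 libraries, 4 at each of 3 times: 0h, 22h and 46h of culture, which the study treats as the germinal vesicle stage, the period before metaphase I and metaphase II. The submitters' design text gives the middle time differently from the sample labels, and the 22h of the labels is used. All groups were fully grown oocytes from the ovaries of prepubertal gilts, taken from pooled cumulus-oocyte complexes and stripped of cumulus cells. The 22h and 46h groups had been cultured with gonadotropins and epidermal growth factor, and the 0h group was collected at the start of culture, so the time in culture and the stage of meiosis cannot be told apart. Each library came from a small pool of oocytes and was amplified by SMART-Seq2, which starts from the poly(A) tail. Nothing in the labels says that replicates came from separate animals, so the p-values measure only the spread between these libraries, which may be technical. Values are FPKM, that is fragments scaled to transcript length and to the total of the library, so levels can be compared between genes. Less of an mRNA, a shorter poly(A) tail that is captured less well, and a changed amount of total RNA in each oocyte cannot be told apart in such values.

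The number of reads is not in the files, so the depth and its counting error are unknown. Oocyte markers were abundant, with a summed level of 14486 to 20958 FPKM in the 0h libraries, 18007 to 26093 FPKM in those of 22h and 4690 to 8538 FPKM in those of 46h over the 13 of 14 listed genes that could be matched. Of 17 matched cumulus and granulosa markers, LHCGR, INHA, AMHR2 and NR5A1 were at 0 in every library, and the summed level of the list, carried by VCAN, KITLG and STAR, was 45.1 to 98.2 FPKM in the 0h libraries, 61.3 to 93.6 FPKM in those of 22h and 121 to 156 FPKM in those of 46h. Mitochondrially encoded genes took 1.79% to 3.76% of the total FPKM in the 0h libraries, 8.06% to 12% at 22h and 12.8% to 16.7% at 46h, and rescaling without them kept 47 of the 48 calls given below. The library of 0h replicate 4 stood apart from the other 0h libraries, with 7895 genes at 1 FPKM or more against 6939 to 7342, and 45 of the 48 calls were kept without it. The part of the marker genes in the results was not tested.

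Of the 66 genes, 64 were above 0 in at least 1 library, and 43 reached a mean of 1 FPKM over all libraries and entered the test. The levels differed widely: 6 genes averaged at least 100 FPKM, 13 lay between 10 and 100 FPKM and 24 between 1 and 10 FPKM. UCHL1, a ubiquitin hydrolase known for its abundance in neurons and germ cells, was the most abundant at every stage, and alone made up 57.4% to 81.2% of the summed FPKM of the 66 genes. It ranked between 32 and 57 among all genes of a library. OTUB1, UCHL3, USP33, USP14 and USP16 were the others that averaged at least 100 FPKM. The summed level of the 66 genes was 0.713% to 0.761% of total FPKM in 3 of the 0h libraries and 0.394% in 0h replicate 4. It was 0.547% to 0.769% at 22h and 0.37% to 0.445% at 46h, so that the 46h libraries overlapped the 0h group only through replicate 4.

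**Figure D1:**
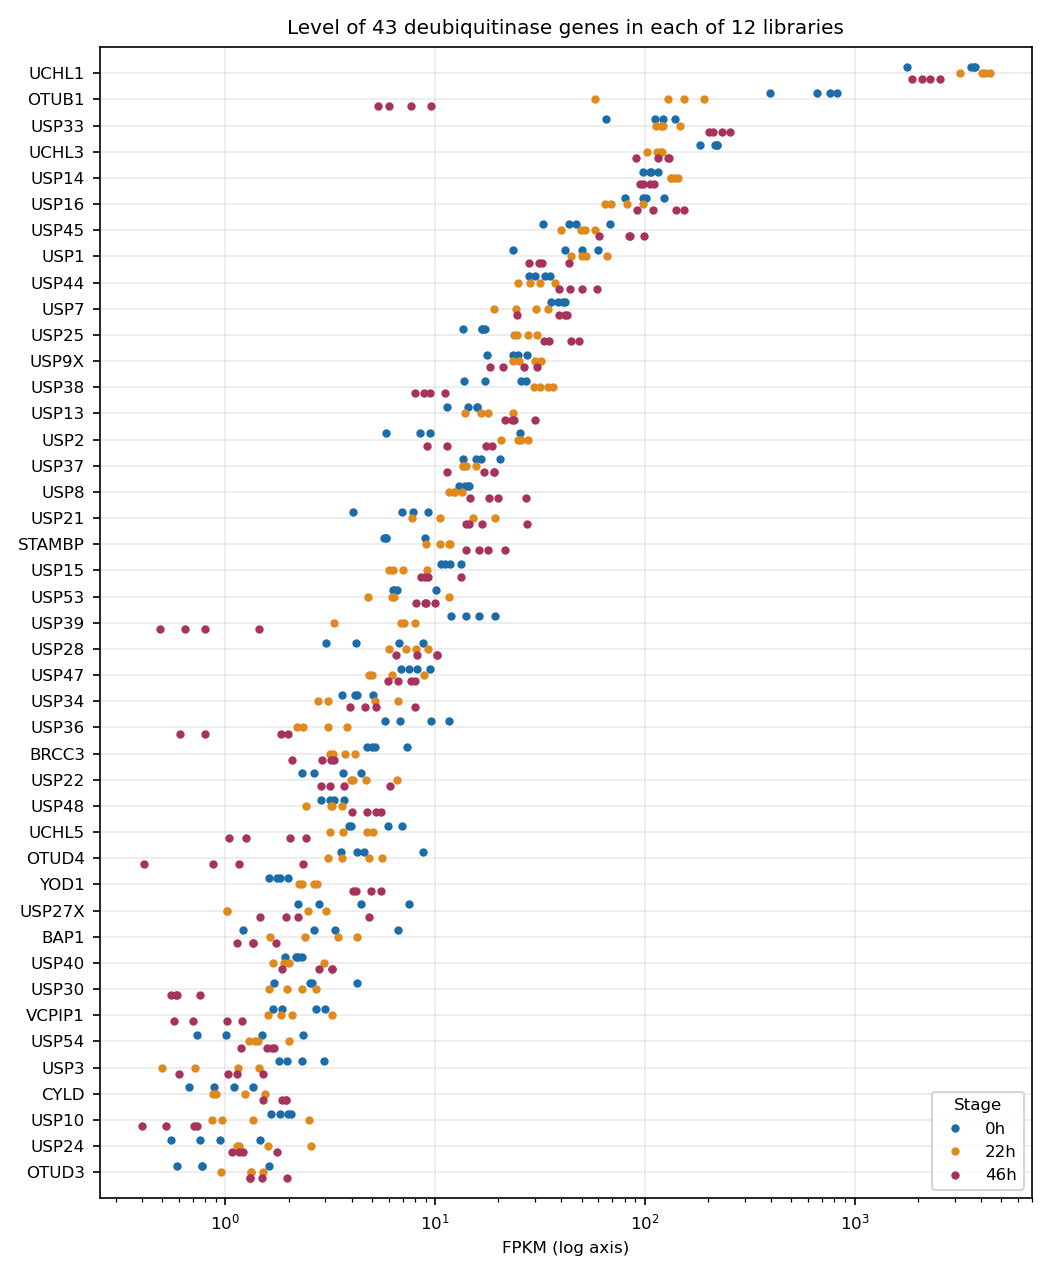
FPKM on a log axis of the 43 deubiquitinase genes that passed the filter, ordered by their mean, with 1 point for each of the 12 libraries and 1 color for each stage. The points of OTUB1 span 820.16 FPKM (a 0h library) to 5.33 FPKM (a 46h library).

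Genes were compared between stages with limma on log2(FPKM + 1) over all 7013 genes that passed the filter, and a gene was called changed at a Benjamini-Hochberg adjusted p under 0.05 and a fold change over 1.5. The question for each pair of stages is which deubiquitinase transcripts rose or fell as meiosis resumed, to 22h, and as it was completed, to 46h. Fold changes are on the log2(FPKM + 1) scale, which understates the change of genes with low levels.

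From 0h to 22h, 4 of 43 deubiquitinase genes were higher (9.30%, against 7.84% of all genes tested) and 6 were lower (14.0%, against 18.9%). From 22h to 46h, 7 were higher (16.3%, against 9.87%) and 10 were lower (23.3%, against 32.6%). From 0h to 46h, 8 were higher (18.6%, against 16.8%) and 13 were lower (30.2%, against 39.1%), with a median log2 fold change of 0.03 against -0.25 over all genes. No test compared these shares with those of all genes, and nothing particular to the deubiquitinases is read from them. The 3 comparisons share libraries and are not independent of each other.

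The scaling of the libraries moved these counts. Over all genes tested, the log2 fold change from 0h to 46h had a median of -0.25 on the deposited values, 0.06 after median-of-ratios scaling and 0.37 after quantile normalization. Under median-of-ratios scaling 17 of the 43 genes were higher and 8 lower at 46h than at 0h (29.3% and 33.1% of all genes), and under quantile normalization 22 were higher and 4 lower (41.0% and 25.5%). From 22h to 46h the split was 15 higher and 6 lower under the former (20.2% and 25.7% of all genes) and 23 higher and 4 lower under the latter (28.1% and 19.1%). From 0h to 22h it was 4 and 6 (9.57% and 17.9%) and 8 and 5 (14.9% and 16.1%). Whether a fall of moderate size at 46h is called therefore depends on the scaling. Both of these scalings moved the median of all genes upward, so the calls kept under them cannot rank rises above falls. Of the calls from 0h to 46h, 7 of the 8 rises and 4 of the 13 falls were called under every alternative that tested them. These were the rises of USP33, USP45, USP25, USP13, USP21, STAMBP and YOD1 and the falls of OTUB1, USP39, USP36 and OTUD4, of which YOD1, USP36 and OTUD4 lay below 5 FPKM on average and did not enter the fit with that filter.

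**Figure D2:**
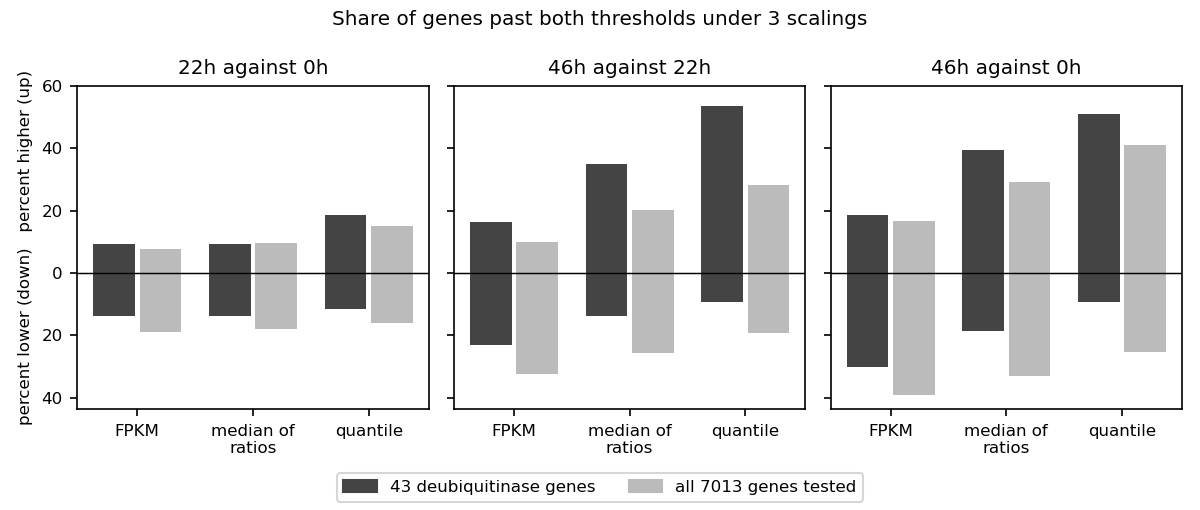
Percent of genes called higher (above the line) and lower (below it) in each comparison, for the 43 deubiquitinase genes (dark bars) and all 7013 genes tested (light bars), with the deposited FPKM, median-of-ratios scaling and quantile normalization. At 46h against 0h the share of deubiquitinase genes called higher goes from 18.6% on the deposited values to 51.2% after quantile normalization, and the share of all genes from 16.8% to 41.0%.

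By family, the calls from 0h to 46h went in different directions in the small families, which the test did not compare with each other. Of the 31 USP genes tested 6 were higher and 6 lower, with a median log2 fold change of 0.20. Of the 5 OTU genes tested 1 was higher and 3 were lower (median -0.81), and of the 4 UCH genes 3 were lower and none was higher (median -0.80). Over all genes 16.8% were higher and 39.1% lower, and nothing particular to a family is read from such small counts. Under quantile normalization none of the 3 UCH falls was called (UCHL3 -0.55, UCHL5 -0.52 and BAP1 -0.07), and under median-of-ratios scaling only that of UCHL5 was. Of the JAMM proteases STAMBP was higher and BRCC3 lower, and CYLD was not called.

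**Figure D3:**
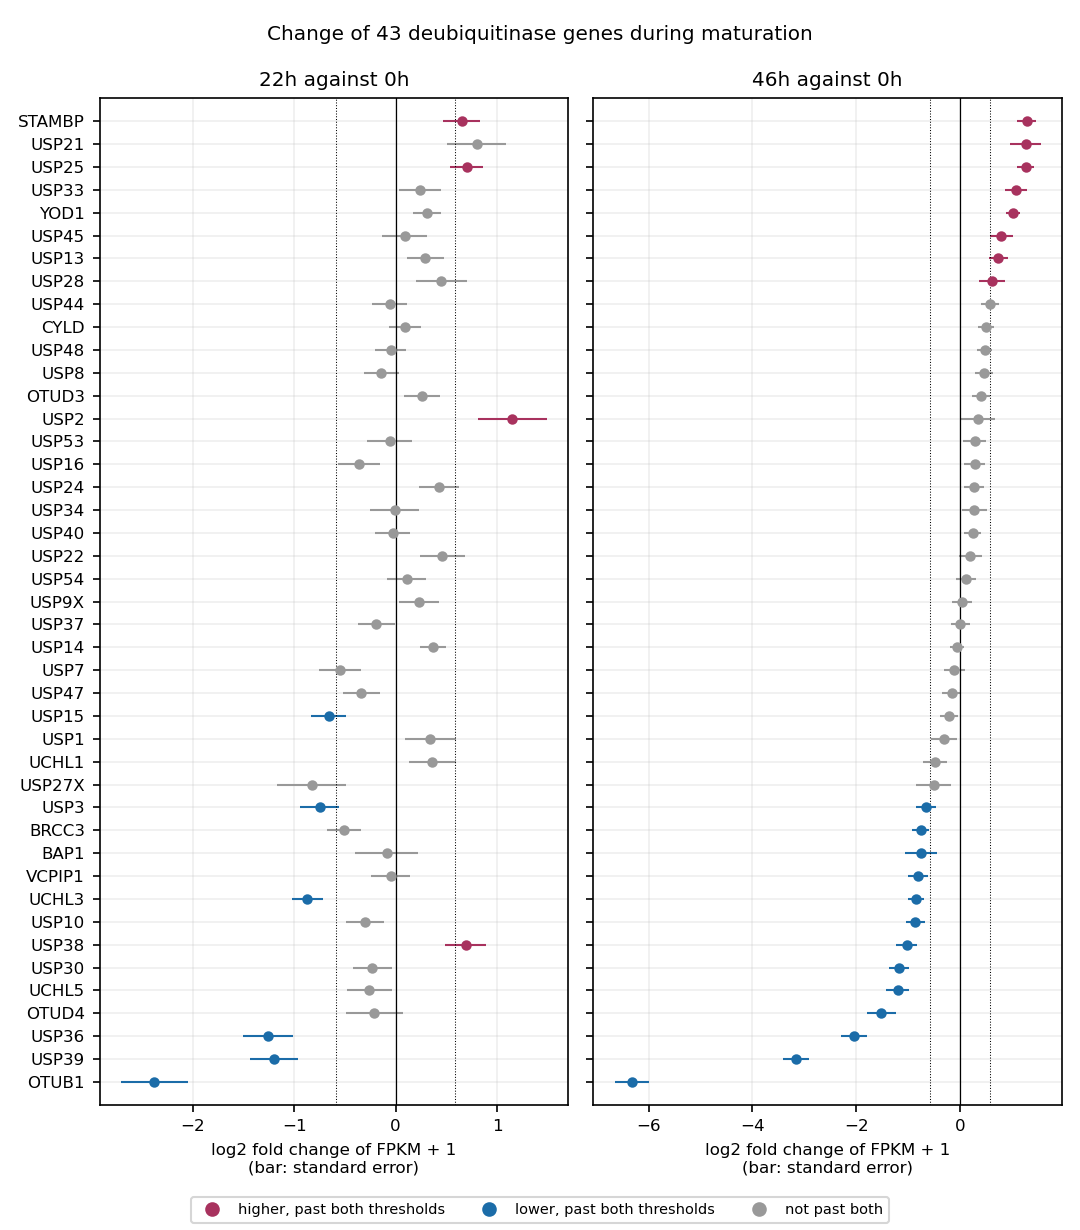
Log2 fold change of FPKM + 1 with its standard error for the 43 deubiquitinase genes at 22h and at 46h against 0h, ordered by the change at 46h; dotted lines mark a fold of 1.5. OTUB1 lies at -6.32 at 46h, beyond USP39 at -3.16 and USP36 at -2.04, and the genes that rose reach at most 1.28.

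The stored mRNAs of an oocyte are lengthened or shortened at the poly(A) tail through signals near their 3′ end, so the ends of the 11 genes just named are shown, except for STAMBP, which had neither of the signals searched. In the last 100 bases of 1 RefSeq transcript for each gene, the letters TTTTAT or TTTTAAT, the core of the cytoplasmic polyadenylation element, and AATAAA or ATTAAA, the polyadenylation hexamer, were searched on the transcript strand only. The element occurred in 15.1% and a hexamer in 62.1% of 19535 protein-coding genes, and in 23.1% and 73.8% of the 65 deubiquitinase genes that matched. The element was in 4 of the 8 genes called higher at 46h against 0h (USP25, USP28, YOD1 and USP45), in 3 of the 13 called lower, OTUB1 among them, and in 6 of the 22 that were not called. For 46h against 22h it was in 2 of the 7 called higher, 2 of the 10 called lower and 9 of the 26 not called. These are counts of letters in one annotated end and no test was made. They do not ask where the element lies relative to the hexamer. Among the genes called higher at 46h against 0h, it began 14, 61 and 90 bases before the last hexamer in USP28, YOD1 and USP45, and after it in USP25. Among those called lower, it began 4 and 16 bases before the last hexamer in OTUB1 and USP3, and after it in VCPIP1. The study aligned to a build it names Sscrofa11; the sequences and positions below are those of RefSeq on Sscrofa11.1.

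The first 4 are the falling genes, each with the 30 bases that end at the last hexamer, hexamers and elements in capitals: OTUB1 at chr2:8088542-8088571 on the minus strand, USP39 at chr3:59121397-59121426 minus, USP36 at chr12:3348485-3348514 plus and OTUD4 at chr8:83288195-83288224 plus. In OTUB1 the element and the hexamer share bases.
OTUB1: ctgtcacacgaccttccatgTTTTATTAAA
USP39: ttctgcaagaggattactaggattAATAAA
USP36: cccgtcgccaagatctctcggtgcAATAAA
OTUD4: ttatatataaaactgtgtgcatatATTAAA

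Of the rising genes, USP33 at chr6:135589693-135589722 plus, USP13 at chr13:117826906-117826935 plus and USP21 at chr4:89289073-89289102 minus are shown in the same way and had a hexamer but no element. For USP25 at chr13:180708923-180708952 plus, YOD1 at chr9:67672701-67672730 minus and USP45 at chr1:66387686-66387715 minus, the 30 bases around the element are shown, and the capitals mark the element alone.
USP33: aaacagcattATTAAAattagttcAATAAA
USP13: gatttattgcttcaattgttttaaATTAAA
USP21: cctctgcagtctcacttttttgtgAATAAA
USP25: aaagaataaagTTTTATttatggctaccta
YOD1: agatgcattgaTTTTATttatgagatgtat
USP45: ctaTTTTATctttttttgcagtgtttctgg

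OTUB1 had the largest fall of the 43 genes in each comparison. It cleaves Lys48-linked chains, the type that sends proteins to the proteasome, and also holds ubiquitin-conjugating enzymes in check without cleaving anything. Its levels at 0h were 762.58, 820.16, 664.71 and 397.2 FPKM. At 22h they were 128.93, 57.95, 191.04 and 154.35 FPKM, and at 46h 6.0, 5.33, 9.57 and 7.69 FPKM. No library of one stage overlapped those of another. The mean was 92.5-fold lower at 46h than at 0h, with a log2 change of -2.38 ± 0.33 (SE; adjusted p = 0.000146) to 22h and -6.32 ± 0.33 (adjusted p = 1.07e-09) to 46h. OTUB1 therefore went from second place among the deubiquitinase genes at 0h to a level near that of STAMBP at 0h. Its close relative OTUB2 was under the filter, at 0.30 to 1.19 FPKM in the 0h libraries and 0.00 to 0.06 FPKM in those of 46h.

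The other OTU genes tested were lower in level. OTUD4, which is known as a scaffold for other deubiquitinases in the repair of alkylated DNA, was at 5.27 ± 2.33 FPKM in the 0h libraries (SD, n = 4), 4.27 ± 1.13 FPKM in those of 22h and 1.20 ± 0.828 FPKM in those of 46h. It fell by 1.52 on the log2 scale from 0h to 46h (SE 0.28, adjusted p = 0.000271). YOD1 and VCPIP1 both work with the segregase VCP, YOD1 in the disposal of proteins from the endoplasmic reticulum and VCPIP1 in the rebuilding of the Golgi. YOD1 had 1.77, 1.62, 1.83 and 1.99 FPKM in the 0h libraries, 2.72, 2.65, 2.33 and 2.25 FPKM in those of 22h, and 4.21, 4.07, 4.97 and 5.55 FPKM in those of 46h. Each stage lay wholly above the one before it, although the step to 22h was not called (adjusted p = 0.0966) and the whole rise in log2 was 1.02 ± 0.14 (adjusted p = 1.63e-05). VCPIP1 went the other way, from 2.30 ± 0.627 FPKM in the 0h libraries and 2.19 ± 0.721 FPKM in those of 22h to 0.872 ± 0.289 FPKM in those of 46h, a fall of 0.81 on the log2 scale (adjusted p = 0.0021) that did not pass under median-of-ratios scaling (-0.58) or quantile normalization (-0.13). YOD1 overlaps PFKFB2 in the annotation, and reads of overlapping genes cannot be told apart without strand.

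In the UCH family, UCHL1 was at 3608.45, 3705.72, 3745.74 and 1768.96 FPKM in the 0h libraries, 3171.58, 4207.27, 4403.02 and 4044.9 FPKM in those of 22h, and 2104.37, 1876.04, 2547.31 and 2296.67 FPKM in those of 46h. All 46h libraries lay below all 22h libraries and below 3 of the 0h libraries, with 0h replicate 4 under them. The log2 change from 22h to 46h was -0.84 (adjusted p = 0.00809), and it did not pass under median-of-ratios scaling (-0.48) or quantile normalization (-0.43). From 0h to 46h the change of -0.48 was not called (adjusted p = 0.0817), and without 0h replicate 4 it was -0.75 and passed both thresholds. UCHL3, which also processes the ubiquitin-like protein NEDD8, was at 219.85, 219.75, 216.76 and 183.12 FPKM in the 0h libraries, 119.43, 114.66, 102.69 and 121.23 FPKM in those of 22h, and 115.93, 90.65, 128.69 and 130.98 FPKM in those of 46h. It fell from 0h to 22h (log2 change -0.87 ± 0.15, adjusted p = 0.000903), and the 22h and 46h libraries overlapped. Its fall from 0h to 46h, of 0.85 on the log2 scale, was -0.45 under median-of-ratios scaling and -0.55 under quantile normalization and did not reach the fold threshold there.

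UCHL5 and USP14 are the deubiquitinases that bind the proteasome reversibly and trim chains there, and of these only UCHL5 was called. UCHL5 had 5.93, 6.99, 3.89 and 3.96 FPKM in the 0h libraries, 3.14, 3.63, 5.04 and 4.71 FPKM in those of 22h, and 1.25, 2.42, 1.04 and 2.03 FPKM in those of 46h. On the deposited values the fall came between 22h and 46h (log2 change -0.95, adjusted p = 0.0026), and the whole change was -1.20. Under quantile normalization these changes were -0.44 (adjusted p = 0.16) and -0.52 (adjusted p = 0.0801), and neither was called. USP14 was at 107 ± 7.03 FPKM in the 0h libraries, 138 ± 5.22 FPKM in those of 22h and 102 ± 7.5 FPKM in those of 46h, with all 22h libraries above those of the other stages, and was called in no comparison. Of 8 tested genes listed as partners of these enzymes, 1 was higher and 2 were lower from 0h to 46h, beside 16.8% and 39.1% of all genes. The others were not called. PSMD14, the deubiquitinase built into the proteasome lid, fell by 1.17 on the log2 scale from 0h to 46h, and ADRM1, the receptor for UCHL5, by 1.12 (-0.36 and not called under quantile normalization). PSMD4, another ubiquitin receptor of the proteasome, was higher by 0.77 (adjusted p = 0.0316), which was lost without 0h replicate 1 (0.46), 0h replicate 2 (0.71), 46h replicate 2 (0.78), 46h replicate 3 (0.68) or 46h replicate 4 (0.72).

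BAP1, the fourth UCH gene, removes ubiquitin from histone H2A in Polycomb regulation. It had 2.64, 1.21, 3.32 and 6.64 FPKM in the 0h libraries and 1.36, 1.35, 1.74 and 1.14 FPKM in those of 46h, and the groups overlapped. Its fall of 0.76 on the log2 scale from 0h to 46h was called at an adjusted p of 0.0452, and was -0.45 (adjusted p = 0.135) without 0h replicate 4. It was -0.48 under median-of-ratios scaling and -0.07 under quantile normalization, and was called in neither. Of its partners tested, FOXK2 fell by 1.85 and OGT and KDM1B were not called.

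The JAMM proteases STAMBP and BRCC3, both specific for Lys63-linked chains, moved in opposite directions. STAMBP acts on endosomes, where it removes ubiquitin from receptors on their way to the lysosome. It had 5.69, 5.84, 5.81 and 8.99 FPKM in the 0h libraries, 9.07, 11.75, 10.56 and 11.7 FPKM in those of 22h, and 16.18, 14.06, 21.48 and 17.84 FPKM in those of 46h. The libraries of each stage lay above those of the stage before, and on the deposited values STAMBP was the only gene of the 43 called higher in all 3 comparisons, with a log2 change of 0.65 to 22h (adjusted p = 0.0136), 0.63 from there to 46h (adjusted p = 0.00941) and 1.28 over the whole period (adjusted p = 2.2e-05). As TPM the change of STAMBP from 22h to 46h was 0.56 and not called, and USP25 was called higher in all 3 comparisons as well under median-of-ratios scaling, as were USP25, USP21 and USP28 under quantile normalization. BRCC3 is the catalytic subunit of the BRISC and BRCA1-A complexes, and had 4.72, 5.17, 5.0 and 7.33 FPKM in the 0h libraries, 4.17, 3.72, 3.26 and 3.14 FPKM in those of 22h, and 3.19, 2.08, 2.88 and 3.3 FPKM in those of 46h. Its log2 change from 0h to 46h was -0.76 (adjusted p = 0.00123), -0.44 under median-of-ratios scaling and -0.07 under quantile normalization. Of its partners, UIMC1, which brings BRCA1-A to ubiquitin chains, fell by 3.08 and BABAM2 by 0.79 on the log2 scale (-0.07 for BABAM2 under quantile normalization). On the deposited values BABAM1 and SHMT2 were not called from 0h to 46h. BABAM1 was called higher under median-of-ratios scaling (1.10) and quantile normalization (1.37), as was SHMT2 (0.84 and 1.08).

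USP8 shares the endosomal substrates of STAMBP. It had 13.9 ± 0.658 FPKM in the 0h libraries, 12.5 ± 0.746 FPKM in those of 22h and 20 ± 5.29 FPKM in those of 46h, with all 46h libraries above the others. It rose from 22h by 0.61 in log2 (adjusted p = 0.00914), which was 0.53 and not called as TPM. Its change of 0.46 from 0h to 46h was not called, and was called under median-of-ratios scaling (0.84) and quantile normalization (1.06) and without 46h replicate 3 (0.59). USP8 overlaps USP50 in the annotation, which was at 0 in every library. STAM and STAM2, which bind STAMBP and USP8 on endosomes, were not called, whereas CHMP3 of the same pathway fell by 1.64.

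**Figure D4:**
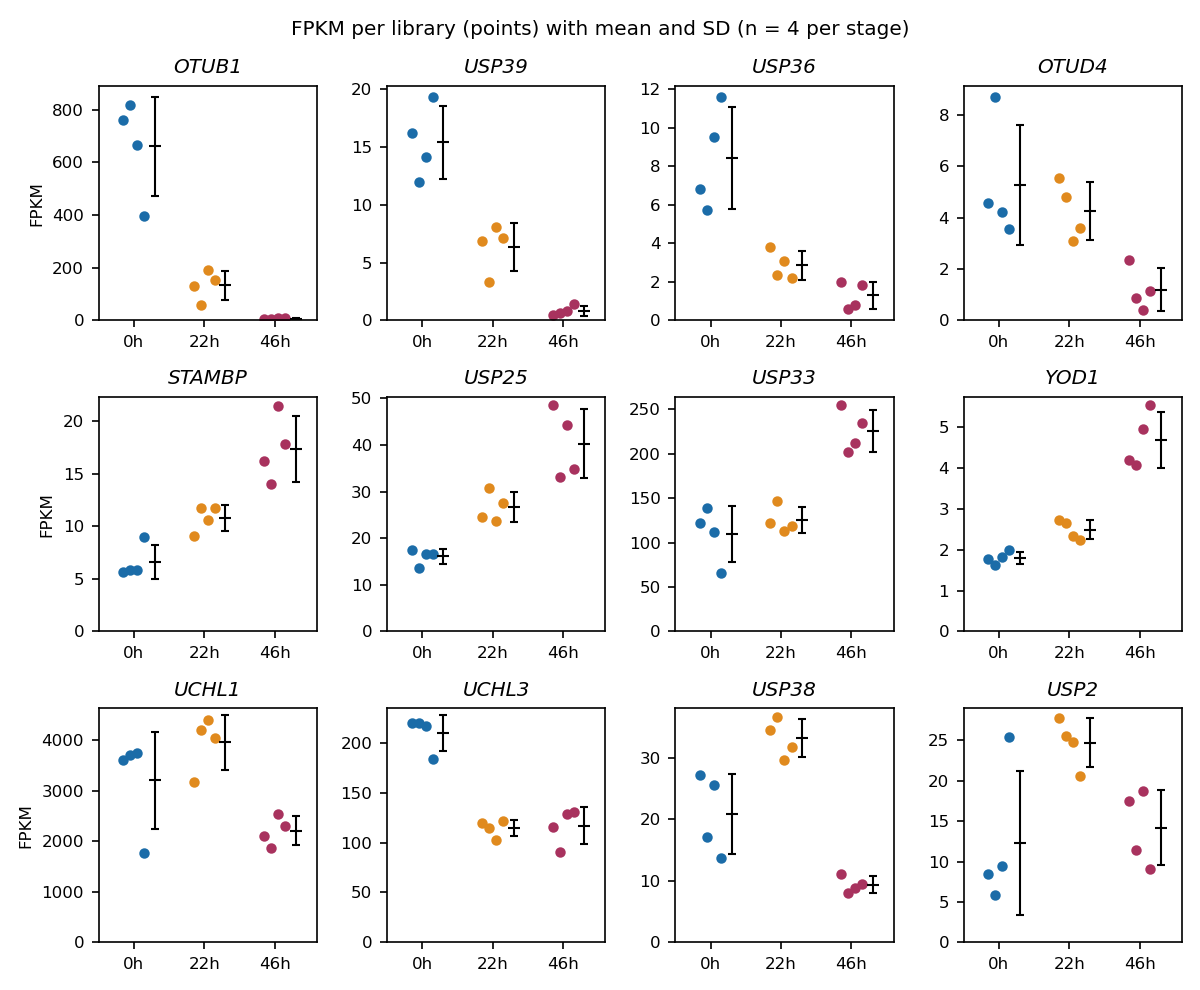
FPKM of 12 deubiquitinase genes in each library (points) with the mean and SD of the 4 libraries of a stage (bars), each panel on its own linear axis from 0. OTUB1, USP39, USP36 and OTUD4 end below their 0h libraries, STAMBP, USP25, USP33 and YOD1 end above them, and USP38 and USP2 have their highest mean at 22h.

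In the USP family, the largest rises to 46h were those of USP21, USP25 and USP33. USP25, which acts on proteins leaving the endoplasmic reticulum and on immune signaling, had 17.36, 13.57, 16.66 and 16.71 FPKM in the 0h libraries, 24.62, 30.72, 23.71 and 27.63 FPKM in those of 22h, and 48.53, 33.16, 44.31 and 34.89 FPKM in those of 46h. The 3 stages did not overlap, and the log2 change was 0.70 to 22h (adjusted p = 0.00583) and 1.26 to 46h (adjusted p = 1.2e-05). From 22h to 46h the change of USP25 was 0.56 (adjusted p = 0.0113), under the fold threshold, and it was called under median-of-ratios scaling (0.91) and quantile normalization (0.99) and without 22h replicate 2 (0.63), 46h replicate 2 (0.65) or 46h replicate 4 (0.63). USP33, known for acting on the centriole protein CCP110, had 122.59, 138.86, 111.72 and 65.49 FPKM in the 0h libraries and 122.28, 146.43, 112.99 and 119.14 FPKM in those of 22h. It then reached 254.56, 201.58, 211.91 and 234.17 FPKM in the 46h libraries, so that its rise fell into the second interval (log2 change 0.85 from 22h, adjusted p = 0.00425). With a mean of 226 FPKM in the 46h libraries, USP33 was the second most abundant deubiquitinase transcript at that stage.

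USP21, an enzyme that acts on histone H2A, had 9.28, 7.83, 6.95 and 4.05 FPKM in the 0h libraries, 7.75, 10.57, 19.29 and 15.15 FPKM in those of 22h, and 14.08, 14.55, 27.53 and 16.76 FPKM in those of 46h. The 46h libraries lay above all 0h libraries while the 22h libraries overlapped both (log2 change from 0h to 46h 1.26 ± 0.29, adjusted p = 0.00178). USP45, which acts on the DNA repair nuclease subunit ERCC1, rose from 47.8 ± 15 FPKM in the 0h libraries and 49.8 ± 7.55 FPKM in those of 22h to 82.0 ± 16.1 FPKM in those of 46h (0.79 on the log2 scale from 0h, adjusted p = 0.00632). Its 0h and 46h libraries overlapped, with 0h replicate 2 at 68.28 FPKM and 46h replicate 3 at 60.21 FPKM. USP13 rose from 14.4 ± 2.14 to 24.6 ± 3.64 FPKM between 0h and 46h (0.73 on the log2 scale, adjusted p = 0.00289). USP28, the relative of USP25 known for stabilizing MYC, was at 5.68 ± 2.57 FPKM in the 0h libraries and 8.79 ± 1.77 FPKM in those of 46h, with overlapping libraries and an adjusted p of 0.0457.

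The largest falls in the USP family were those of USP39 and USP36, which are both known for work on RNA. USP39 has lost its protease activity and is a part of the spliceosome. It had 16.19, 11.95, 14.09 and 19.3 FPKM in the 0h libraries, 6.84, 3.29, 8.04 and 7.08 FPKM in those of 22h, and 0.49, 0.64, 0.8 and 1.45 FPKM in those of 46h. Its mean was 18.2-fold lower at 46h than at 0h with no overlap at any step (log2 change -1.20 to 22h, adjusted p = 0.00207, and -3.16 to 46h, adjusted p = 4.79e-08). USP36, the nucleolar deubiquitinase of ribosome production, had 6.83, 5.74, 9.54 and 11.61 FPKM in the 0h libraries, 3.81, 2.35, 3.1 and 2.19 FPKM in those of 22h, and 1.98, 0.61, 0.8 and 1.84 FPKM in those of 46h. No libraries overlapped between stages, with a log2 change to 22h of -1.26 (adjusted p = 0.0018), and the change to 46h was -2.04 (adjusted p = 6.04e-06).

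USP30, which sits on the outer mitochondrial membrane and opposes mitophagy, had 2.58, 1.71, 2.54 and 4.25 FPKM in the 0h libraries, 2.69, 1.62, 2.33 and 1.96 FPKM in those of 22h and 0.59, 0.55, 0.76 and 0.58 FPKM in those of 46h. All 46h libraries lay under all others, and the log2 change of -1.18 from 0h (adjusted p = 8.32e-05) was -0.47 under quantile normalization. USP30 overlaps ALKBH2 in the annotation. USP10, which binds the stress granule proteins G3BP1 and G3BP2, went from 1.88 ± 0.177 FPKM in the 0h libraries to 0.59 ± 0.158 FPKM in those of 46h (log2 change -0.86, adjusted p = 0.0011; -0.14 under quantile normalization). USP3, a deubiquitinase of histones H2A and H2B, fell from 2.26 ± 0.504 FPKM in the 0h libraries to 0.955 ± 0.426 FPKM in those of 22h (log2 change -0.75, adjusted p = 0.00927) and was at 1.07 ± 0.375 FPKM in those of 46h. Its change from 0h to 46h was -0.66 on the deposited values and 0.02 under quantile normalization. On the deposited values USP15 was called only from 0h to 22h (log2 change -0.66, adjusted p = 0.011). It was at 7.15 ± 1.41 FPKM in the 22h libraries against 11.7 ± 1.17 FPKM in those of 0h. That fall was -0.49 and not called under quantile normalization. From 22h to 46h USP15 was called higher under median-of-ratios scaling (0.75) and quantile normalization (0.91).

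USP38 and USP2 had their highest mean at 22h. USP38 had 27.12, 17.2, 25.61 and 13.71 FPKM in the 0h libraries, 34.55, 36.65, 29.67 and 31.8 FPKM in those of 22h, and 11.18, 8.02, 8.89 and 9.46 FPKM in those of 46h. The 22h libraries lay above and the 46h libraries below all 0h libraries, and on the deposited values USP38 was the only gene of the 43 called higher in the first interval (log2 change 0.69, adjusted p = 0.0198) and lower in the second (-1.72, adjusted p = 8.58e-06). USP2, known for stabilizing cyclin D1 and MDM2, had 8.47, 5.83, 9.42 and 25.4 FPKM in the 0h libraries, 27.79, 25.58, 24.84 and 20.59 FPKM in those of 22h, and 17.48, 11.39, 18.68 and 9.11 FPKM in those of 46h. The value of 0h replicate 4 lay within the 22h range, and the log2 change to 22h was 1.15 (adjusted p = 0.02). All 46h libraries of USP2 lay below all 22h libraries, with a change of -0.81 that was not called (adjusted p = 0.0644). That fall was called as TPM (-0.90), with only these stages in the fit and without 0h replicate 2 or 0h replicate 4 (-0.81 in each), and it was -0.32 under quantile normalization. From 0h to 46h the change of USP2 was 0.34 and not called (adjusted p = 0.404). It was called higher under median-of-ratios scaling (0.72) and quantile normalization (0.92) and without 0h replicate 4 (0.74).

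On the deposited values USP16, USP44 and USP1 were called only between 22h and 46h. USP16, a mitotic H2A deubiquitinase, went from 78.4 ± 15.2 to 124 ± 28.6 FPKM with overlapping libraries (log2 change 0.64, adjusted p = 0.0177). USP44, known for its part in the spindle checkpoint, went from 30.5 ± 5.25 to 48.1 ± 8.67 FPKM without overlap (0.64, adjusted p = 0.00774), and overlaps METAP2 in the annotation. All 46h libraries of USP44 also lay above all 0h libraries, with a log2 change of 0.58 (adjusted p = 0.00968) just under the fold threshold. That change was called with a pseudocount of 0.1 (0.59), under median-of-ratios scaling (0.97) and quantile normalization (1.05), as TPM without mitochondrially encoded genes (0.67) and in 4 of the 12 fits that each left out 1 library. USP16 was at 0.28 from 0h to 46h (adjusted p = 0.243) and was called under median-of-ratios scaling (0.68) and quantile normalization (0.66). As TPM the changes of USP16 (0.56) and USP44 (0.55) from 22h to 46h were not called. USP1, which acts on FANCD2 and PCNA in DNA repair, went from 53.3 ± 9.24 to 33.8 ± 6.84 FPKM (-0.64, adjusted p = 0.0462), a fall that was not called under median-of-ratios scaling (-0.30) or quantile normalization (-0.22). WDR48, which activates USP1, was at 26.5 FPKM in the 0h libraries, 21.9 FPKM in those of 22h and 34.3 FPKM in those of 46h on average. WDR48 was called higher from 22h to 46h (0.60, adjusted p = 0.0404) with overlapping libraries, but not as TPM (0.52) or TPM without mitochondrially encoded genes (0.62), without a filter, or in 7 of the 12 fits that each left out 1 library (0.50 to 0.75 over the 12). WDR20 rose by 1.48 on the log2 scale from 0h to 46h (1.21 and adjusted p = 0.0563 without 46h replicate 3).

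Several of these calls were not kept in every fit that left out 1 library. Those of BAP1 and USP28 from 0h to 46h and of USP1 from 22h to 46h lay near the threshold. Their adjusted p in the limma fit of all 12 libraries was 0.0452, 0.0457 and 0.0462. Leaving out some libraries of the stage not compared also lost them, with log2 changes still at -0.76, 0.62 and -0.64. BAP1 at 46h against 0h passed only without 0h replicate 2, 22h replicate 2 or 22h replicate 3 among the 12 fits that each left out 1 library, with log2 changes from -1.05 to -0.45. USP28 in that comparison passed only without 0h replicate 3, 0h replicate 4, 22h replicate 1 or 46h replicate 4 (0.40 to 0.83), and USP3 did not pass without 0h replicate 4 (-0.57) or 46h replicate 1 (-0.54). USP1 from 22h to 46h passed only without 0h replicate 2, 0h replicate 4, 22h replicate 3 or 46h replicate 1 (-0.77 to -0.54). In that interval USP16 was lost without 22h replicate 3 (0.56), 46h replicate 1 (0.57) or 46h replicate 2 (0.53), USP44 without 22h replicate 3 (0.55) or 46h replicate 1 (0.53), and USP8 without 22h replicate 4 (0.58) or 46h replicate 2 (0.45). STAMBP was lost there without 22h replicate 1 (0.56) or 46h replicate 3 (0.53), USP45 without 22h replicate 3 (0.60) or 46h replicate 4 (0.60), and USP36 without 22h replicate 1 (-0.66), 46h replicate 2 (-0.62) or 46h replicate 3 (-0.67). From 0h to 22h, USP38 was lost without 0h replicate 2 (0.61), 0h replicate 4 (0.51) or 22h replicate 2 (0.64), and USP2 without 0h replicate 1 (1.05), 0h replicate 2 (0.89) or 0h replicate 3 (1.10).

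On the deposited values, 28 of the 43 genes (65.1%, against 63.7% of all genes tested) were called in at least 1 comparison and 15 in none. The 15 were USP14, USP7, USP9X, USP37, USP53, USP47, USP34, USP22, USP48, USP27X, USP40, USP54, CYLD, USP24 and OTUD3. Under median-of-ratios scaling 29 of the 43 were called in some comparison (67.4%, against 69.9% of all genes), among them USP7, USP53, USP34, USP48, CYLD and OTUD3 of the 15. Under quantile normalization 33 were (76.7%, against 75.7%), among them 13 of the 15, all but USP14 and USP9X. USP7, which stabilizes MDM2 and p53, was at 39.2 ± 2.61 FPKM in the 0h libraries, 27.0 ± 6.71 FPKM in those of 22h and 37.0 ± 8.43 FPKM in those of 46h. All 22h libraries of USP7 lay below all 0h libraries (log2 change -0.55, adjusted p = 0.0587), which was called without 22h replicate 1 (-0.68). Its change of 0.44 from 22h to 46h was called under median-of-ratios scaling (0.79), under quantile normalization (0.88) and without 46h replicate 3 (0.62). USP9X, a large and widely expressed X-linked deubiquitinase, was at 23.4 ± 4.11, 27.6 ± 3.93 and 24.1 ± 5.59 FPKM, and the libraries of all 3 stages overlapped. CYLD, which removes Lys63-linked and linear chains in NF-kB signaling, was at 1.0 ± 0.296, 1.14 ± 0.316 and 1.82 ± 0.208 FPKM, with all 46h libraries above all 0h libraries. Its log2 change of 0.50 was under the fold threshold on the deposited values, but CYLD was called higher with a pseudocount of 0.1 (0.83), under median-of-ratios scaling (0.74) and quantile normalization (1.19), and as TPM without mitochondrially encoded genes (0.64). A missing call does not show that a level stayed the same.

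The other 23 genes were under the filter, with a mean under 1 FPKM, and USP50 and OTUD6A were listed at 0 in all 12 libraries. Between 0h and 46h, 18 of the 23 overlapped, 5 were lower in every 46h library and none was higher in every one (exact two-sided permutation test for each of the 5, p = 0.0286, the smallest that 4 against 4 libraries can give and unadjusted). The 5 are 23.8% of the 21 that were above 0 in some library, and of the 10620 genes of the whole data under the same filter and above 0 in some library, 14.4% were lower in every 46h library and 0.97% were higher. These 5 were USP4, OTUB2, USP11, USP42 and USP49. USP4 had 1.06, 0.22, 0.27 and 2.47 FPKM in the 0h libraries and 0.00, 0.19, 0.21 and 0.16 FPKM in those of 46h, and USP11 0.13 to 0.72 FPKM in those of 0h and 0.03 to 0.07 FPKM in those of 46h. At such levels a few reads decide the value.

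Related genes were also compared by their ratio within each library, which changes with the scaling of a library only through the pseudocount. There were 12 pairs with both genes above the filter and 36 tests over the 3 comparisons. By the exact two-sided permutation test none of the 36 passed after Benjamini-Hochberg adjustment, and 13 had the smallest unadjusted p that the design allows, 0.0286, with an adjusted p of 0.0791. With 36 tests, a ratio at that smallest p passes only if more than 13 tests share it, however large its change. The lack of a pass is therefore not read as a lack of change. The log2 ratio of STAMBP to BRCC3 changed most, from 0.20 ± 0.05 at 0h (SD, n = 4) through 1.36 ± 0.28 at 22h to 2.25 ± 0.22 at 46h, with no overlap at either step. The log2 ratio of USP14 to UCHL5 went from 4.15 ± 0.30 through 4.77 ± 0.21 to 5.30 ± 0.25, again without overlap. The log2 ratio of UCHL1 to UCHL3 was 3.87 ± 0.40 at 0h, 5.09 ± 0.29 at 22h and 4.24 ± 0.11 at 46h, and thus highest at 22h in every library. USP3 against USP22, which both act on histones, went from -0.37 ± 0.28 at 0h to -1.58 ± 0.44 at 22h and -1.23 ± 0.41 at 46h. USP2 against USP21 went from 0.92 ± 0.66 at 22h to -0.35 ± 0.47 at 46h without overlap, and the 0h libraries overlapped both (0.57 ± 1.25). USP25 against USP28 was 1.43 ± 0.49 at 0h and 2.08 ± 0.15 at 46h.

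**Figure D5:**
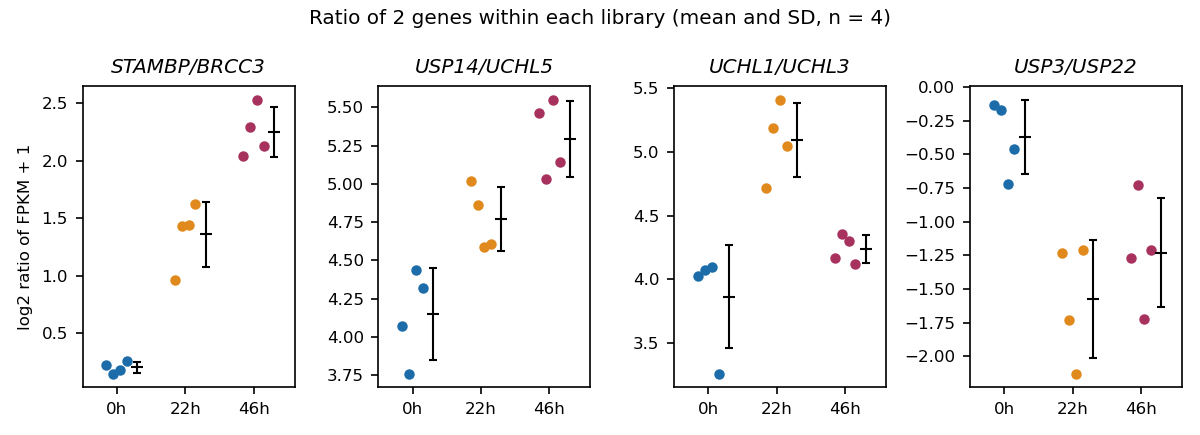
Log2 ratio of FPKM + 1 of 4 pairs of related genes within each library (points) with the mean and SD of 4 libraries (bars); the axes differ and do not start at 0. STAMBP/BRCC3 and USP14/UCHL5 step upward without overlap between stages, UCHL1/UCHL3 is highest at 22h, and USP3/USP22 is highest at 0h.

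A list of other deubiquitinases and of relatives that share their folds was counted for comparison, and not all of its genes act on ubiquitin. Of its 20 genes 15 were tested, and from 0h to 46h 1 was higher and 8 were lower, beside 16.8% and 39.1% of all genes. The higher one was ZUP1, a Lys63-specific protease, at 1.0 on the log2 scale. The largest falls were those of COPS5, the subunit of the COP9 signalosome that removes NEDD8, at -3.58, of EIF3H, an inactive JAMM subunit of a translation initiation factor, at -3.57, and of the Josephin protease JOSD2 at -2.80. Of 8 tested proteases of ubiquitin-like proteins 2 were higher and 4 lower. The falls were those of DESI2 at -1.88, of ATG4B, which acts on the autophagy protein LC3, at -1.78, of the SUMO protease SENP2 at -1.35 and of the NEDD8 protease SENP8 at -1.18. The rises were those of the UFM1 protease UFSP2 at 1.23 and of SENP5, another SUMO protease, at 1.17. Nothing particular to these lists is read from their counts, and some of the calls depend on the scaling, such as that of MINDY3, which was -0.90 on the deposited values and not called under median-of-ratios scaling (-0.50) or quantile normalization (-0.55). Among genes that encode ubiquitin itself, UBB had a mean of 25072 FPKM in the 0h libraries, 21254 FPKM in those of 22h and 23723 FPKM in those of 46h and was not called (called lower, at -0.68, under quantile normalization), and RPS27A, a fusion with a ribosomal protein, fell by 3.0 on the log2 scale from 0h to 46h. Of the partner proteins listed, GMPS, which binds USP7, fell by 4.33, the VCP cofactor NSFL1C by 4.0, SPATA2, which links CYLD to the linear chain ligase, by 1.72 and the USP10 partner G3BP2 by 1.06 (-0.38 under quantile normalization), while the VCP cofactor UFD1 was higher by 0.74.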

How the data were processed

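RNA was measured in 12 libraries of denuded porcine oocytes. The deposited values are FPKM per Ensembl gene, made by the authors with Trim Galore 0.6.4, STAR 2.7.6a on Sscrofa11 and RSEM 1.3.3, and were used as they stand. The authors' own count model could not be run, since no counts were used here, and the depth is unknown. Identifiers were named from a gene name table (15029 of 31908).

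Genes that averaged 1 FPKM or more were fitted as log2(FPKM + 1) with limma 3.58.1 in R 4.3.3 (intensity trend, stage as the only factor, all 12 libraries). P-values were two-sided and adjusted by Benjamini-Hochberg over all 7013 genes, and a call needed an adjusted p under 0.05 and a fold over 1.5. Genes under the filter and ratios of pairs were compared by exact permutation. Tested on simulated data for 46h against 0h (7013 genes), the fit called 68 of 100 genes changed by 1 on the log2 scale and 97 of 100 changed by 2, none in the wrong direction, and 8 unchanged genes.

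Genes described singly were the up to 6 largest rises and falls of each comparison, the 5 most abundant genes, the genes outside the USP and OTUD series, the 3 pairs whose ratio changed most at 46h against 0h, the genes under the filter whose 0h and 46h libraries did not overlap, and of other lists the 3 largest changes and direct partners. The others described (USP1, USP7, USP8, USP9X, USP10, USP13, USP22, USP28, ZUP1, MINDY3, UFSP2, SENP5 and SENP8 among them) were added after their values were seen. The genes and lists were chosen with earlier results of these data known. Alternatives were the pseudocount, the filter, 4 scalings, the libraries fitted, the trend, a replicate block and each library left out. The metabolomic data were not analysed here.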

Additional observations from a re-analysis of the deposited data

Results flagged for a closer look

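In 5 of 90 groups of 4 libraries, over 30 deubiquitinase genes at 3 stages, 1 library lay far from the other 3 by Dixon's criterion, and chance alone flags about 1 in 20 groups. Of these, 3 came from 0h replicate 4: UCHL1 at 1768.96 FPKM against 3608.45 to 3745.74 FPKM, UCHL3 at 183.12 FPKM against 216.76 to 219.85 FPKM, and STAMBP at 8.99 FPKM against 5.69 to 5.84 FPKM. The others were USP25 in 0h replicate 2, at 13.57 FPKM against 16.66 to 17.36 FPKM, and CYLD in 46h replicate 2, at 1.51 FPKM against 1.87 to 1.95 FPKM. The cause was not tested.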

How the results depend on the processing

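Of the 48 calls in the 3 comparisons, 48 held with a pseudocount of 0.1 and without the intensity trend, 43 without a filter, 43 as TPM, 46 with only the stages compared in the fit, 39 under median-of-ratios scaling and 32 under quantile normalization. The count of genes higher at 22h than at 0h was 4, and 8 under quantile normalization. From 22h to 46h the count of higher genes was 7, and 15 under median-of-ratios scaling, 23 under quantile normalization and 3 as TPM. The count of lower genes was 10, and 6, 4 and, with a mean of at least 5 FPKM, 5. From 0h to 46h the count of higher genes was 8, and 17 and 22 under the same scalings. The count of lower genes was 13, and 8, 4 and, with a mean of at least 5 FPKM, 4, where fewer genes enter the test. The cause of the difference between scalings was not tested.

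Leaving out 1 library at a time gave 2 to 5 higher and 6 to 8 lower genes from 0h to 22h, with 2 higher without 0h replicate 2. It gave 4 to 8 and 8 to 12 from 22h to 46h, with 4 higher without 22h replicate 3, and 7 to 10 and 11 to 13 from 0h to 46h. For the pair ratios this says nothing of the stage that lost a library, since 3 against 4 libraries give an exact p of 0.0571 at the least, and 0 passed. Among changes with an adjusted p under 0.05 on the deposited values, quantile normalization reversed the log2 change to 0.02 for USP3 at 46h against 0h and to 0.03 for USP10 at 46h against 22h, and outside the name rule to 0.07 for MYSM1 and 0.20 for ABRAXAS2 at 46h against 0h. Changes that had not been called also turned sign there, among them USP47, from -0.16 to 0.50 at 46h against 0h.

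The correlations of the deviations of same-numbered libraries had a range of -0.466 to 0.082 between 0h and 22h. Between 22h and 46h the range was 0.009 to 0.381, all positive, and between 0h and 46h it was -0.281 to 0.084. In no comparison were all 4 over 0.1, so the replicate numbers were not taken as pairs. With the replicate block the counts were 4 higher and 6 lower, 7 and 10, and 7 and 13, USP28 being the call lost, and 0 pair ratios passed, where the smallest exact p is 0.125. The depth of the libraries is unknown, so the counting error of genes at a few FPKM could not be given.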
